A study of Mus musculus with 30 samples.

Results

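The stearoyl-CoA desaturase family of the mouse consists of 4 genes, Scd1, Scd2, Scd3 and Scd4. They were chosen by gene symbol, and all 4 were found among the 24063 genes of the macrophage count table and among the 24453 genes of the hepatocyte count table. Polyadenylated RNA was sequenced from primary mouse macrophages elicited with thioglycollate and from primary mouse hepatocytes, each cultured with one of 5 ligands or with vehicle. Within each cell type the groups were desmosterol at 10 uM, DMHCA at 1 uM, MePipHCA at 1 uM, GW3965 at 1 uM, T0901317 at 1 uM and the vehicle, which the labels give as DMSO and ethanol. Each macrophage group had 3 libraries and each hepatocyte group had 2, which makes 30 libraries in 12 groups. Macrophages were kept in RPMI and hepatocytes in Hepatozyme, both with 10% FBS. All groups, vehicle included, were moved 24 h before the ligand to medium with 10% lipid deficient FBS, 50 uM mevalonate and 10 uM of the statin mevastatin, and stayed in it for the 18 to 20 h with ligand. Statins are inhibitors of HMG-CoA reductase, the enzyme that makes mevalonate, so every comparison was made with this inhibitor and with added mevalonate in the medium. Strain, sex and age are not given in the sources used here, nor whether replicates came from separate animals or cultures, so p-values measure the spread between these libraries, which may be technical in part.

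Stearoyl-CoA desaturases sit in the membrane of the endoplasmic reticulum and introduce a cis double bond into saturated fatty acyl-CoA. They convert stearoyl-CoA to oleoyl-CoA and palmitoyl-CoA to palmitoleoyl-CoA, using electrons passed on by cytochrome b5 and its reductase. Their products are main building blocks of triglycerides, cholesteryl esters and membrane phospholipids. In the mouse, Scd1 is known as the main isoform of liver and fat, Scd2 as the isoform of brain and of many other tissues, Scd3 as an isoform of skin and the Harderian gland, and Scd4 as an isoform of the heart. Scd1 is a textbook target of the liver X receptors (LXR), nuclear receptors that are activated by oxysterols and by desmosterol, and of SREBP-1c, the lipogenic transcription factor encoded by Srebf1. Desmosterol is a late intermediate of cholesterol synthesis. DMHCA and MePipHCA are synthetic sterol amides made to mimic it, while GW3965 and T0901317 are synthetic LXR agonists that are not sterols.

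The 4 genes lie next to each other on chromosome 19. In the build mm10, the counted transcripts were NM_024450 for Scd3 at chr19:44203288-44244016 on the plus strand, NM_009128 for Scd2 at chr19:44293676-44306862 on the plus strand, NM_183216 for Scd4 at chr19:44333326-44346743 on the plus strand and NM_009127 for Scd1 at chr19:44394450-44407709 on the minus strand. Their counted lengths were 3462, 5443, 3064 and 4829 bases. The coding sequences are closely related, so reads of one member can match another. In the GENCODE M21 transcripts of each gene, Scd1 shared 90.4% of its aligned coding bases with Scd2, 91.5% with Scd3 and 84.7% with Scd4. Scd2 and Scd4 shared 83.8%. The longest run without a difference was 147 bases between Scd1 and Scd2 and 185 bases between Scd1 and Scd3.

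A stretch of 60 coding bases in exon 4 shows why reads can be hard to assign: it is the same in Scd1, Scd2 and Scd3. It lies at chr19:44401703-44401762 on the minus strand in Scd1, chr19:44299745-44299804 on the plus strand in Scd2, chr19:44235907-44235966 on the plus strand in Scd3 and chr19:44339046-44339105 on the plus strand in Scd4. Capitals mark bases that differ from Scd1.
Scd1 exon 4: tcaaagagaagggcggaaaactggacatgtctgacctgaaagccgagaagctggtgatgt
Scd2 exon 4: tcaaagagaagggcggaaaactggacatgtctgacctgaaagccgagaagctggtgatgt
Scd3 exon 4: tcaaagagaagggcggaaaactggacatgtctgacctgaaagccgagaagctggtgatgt
Scd4 exon 4: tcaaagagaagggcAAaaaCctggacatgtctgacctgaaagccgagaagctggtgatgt
Scd4 differed from Scd1 at 3 of these 60 bases.

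A stretch of 60 coding bases in exon 2 shows the opposite case, where Scd1, Scd2 and Scd4 can be told apart. It lies at chr19:44406611-44406670 on the minus strand in Scd1, chr19:44295003-44295062 on the plus strand in Scd2, chr19:44215501-44215560 on the plus strand in Scd3 and chr19:44334078-44334137 on the plus strand in Scd4. Capitals again mark bases that differ from Scd1.
Scd1 exon 2: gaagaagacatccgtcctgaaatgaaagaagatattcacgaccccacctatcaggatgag
Scd2 exon 2: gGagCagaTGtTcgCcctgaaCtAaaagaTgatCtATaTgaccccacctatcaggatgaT
Scd3 exon 2: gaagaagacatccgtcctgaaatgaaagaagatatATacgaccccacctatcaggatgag
Scd4 exon 2: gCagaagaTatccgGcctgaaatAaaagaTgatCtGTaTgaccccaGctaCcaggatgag
Here Scd2 differed from Scd1 at 14 bases, Scd4 at 11 and Scd3 at 2. Over whole transcripts, of the windows of 50 bases in Scd2, 2.68% were also found in Scd1. Of the windows in Scd4, 1.87% were found in Scd2, and of those in Scd3, 4.85% were found in Scd1. How the counting treated reads that match more than 1 place is not given in the sources used here.

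Libraries held 3862655 to 15685961 counted reads in macrophages and 6627812 to 18626562 in hepatocytes. The 3 vehicle macrophage libraries, at 10549773 to 15685961 reads, were deeper than all DMHCA, MePipHCA and GW3965 macrophage libraries. Of the 6 hepatocyte markers, 5 were at or near 0 in macrophages. The albumin gene Alb did not exceed 0.37 counts per 1000000 counted reads (CPM) in macrophage libraries, against 16399 to 24201 CPM in hepatocyte libraries. The macrophage genes Csf1r and Lyz2 stood at 685 to 1297 CPM and 8450 to 12390 CPM in macrophage libraries, against 1.19 to 8.30 CPM and 2.17 to 16.3 CPM in hepatocyte libraries. Other markers were less specific, on CPM values scaled within each cell type. Trf, the transferrin gene, stood at 517 to 895 CPM in macrophage libraries, against 6793 to 8666 CPM in hepatocyte libraries. The macrophage marker Cd68 stood at 2688 to 3448 CPM in macrophage libraries, against 156 to 280 CPM in hepatocyte libraries. Cd14 went against its list, at 55.8 to 80.6 CPM in macrophage libraries and 94.9 to 139.8 CPM in hepatocyte libraries, and Clec4f, a marker of the resident macrophages of the liver, was at 0 in all macrophage libraries. Cell type was confounded with the medium and with the date in the sample titles, so these cannot be told apart from it.

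A member was called expressed in a cell type where it passed edgeR's filter on low counts, which keeps genes with enough reads in at least the number of libraries of the smallest group. Scd1 and Scd2 passed in both cell types. Scd4 passed in macrophages and not in hepatocytes. Scd3 passed in neither. In macrophages Scd4 passed only through its 3 GW3965 libraries, the 1 group of 6 with any library over the cutoff of 1.36 CPM. Thus 3 of the 4 members were fitted in macrophages and 2 of 4 in hepatocytes, and the values of Scd4 are given with no test.

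The levels of the 2 main paralogs had opposite orders in the cell types. Between genes, levels were compared as CPM divided by the kilobases of counted transcript (CPM per kilobase). In vehicle macrophages Scd1 averaged 4.58 and Scd2 29.2 CPM per kilobase. In vehicle hepatocytes Scd1 averaged 228 and Scd2 1.89 CPM per kilobase. Scd1 made up 13.5% ± 0.899 of the family's summed level per kilobase in vehicle macrophages (SD, n = 3) and 99.2% ± 0.0753 in vehicle hepatocytes (SD, n = 2). Scd2 made up 86.3% ± 0.859 in vehicle macrophages and 0.820% ± 0.0448 in vehicle hepatocytes. This order of the paralogs held in all 30 libraries. Across all groups Scd1 held a mean share of 99.2% to 99.7% in hepatocytes, and Scd2 a mean share of 81.1% to 91.3% in macrophages.

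Between the vehicle groups, Scd1 had a log2 fold change of -5.20 ± 0.085 (SE), 36.7-fold lower in macrophages than in hepatocytes (edgeR quasi-likelihood test, adjusted p = 1.6e-40). Scd2 was 21.0-fold higher in macrophages (log2 fold change 4.40 ± 0.12, adjusted p = 1.2e-31). Of all 13700 genes in this comparison, 78.2% passed the threshold, so that passing it said little about these genes. The folds of Scd1 and Scd2 come from a joint fit of all 30 libraries, while levels per kilobase were scaled within each cell type. The folds therefore differ from the ratios of those levels. Summed over the 4 members, the level was 33.8 ± 1.12 CPM per kilobase in vehicle macrophages and 230.2 ± 2.65 in vehicle hepatocytes, scaled within each cell type.

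**Figure D1:**
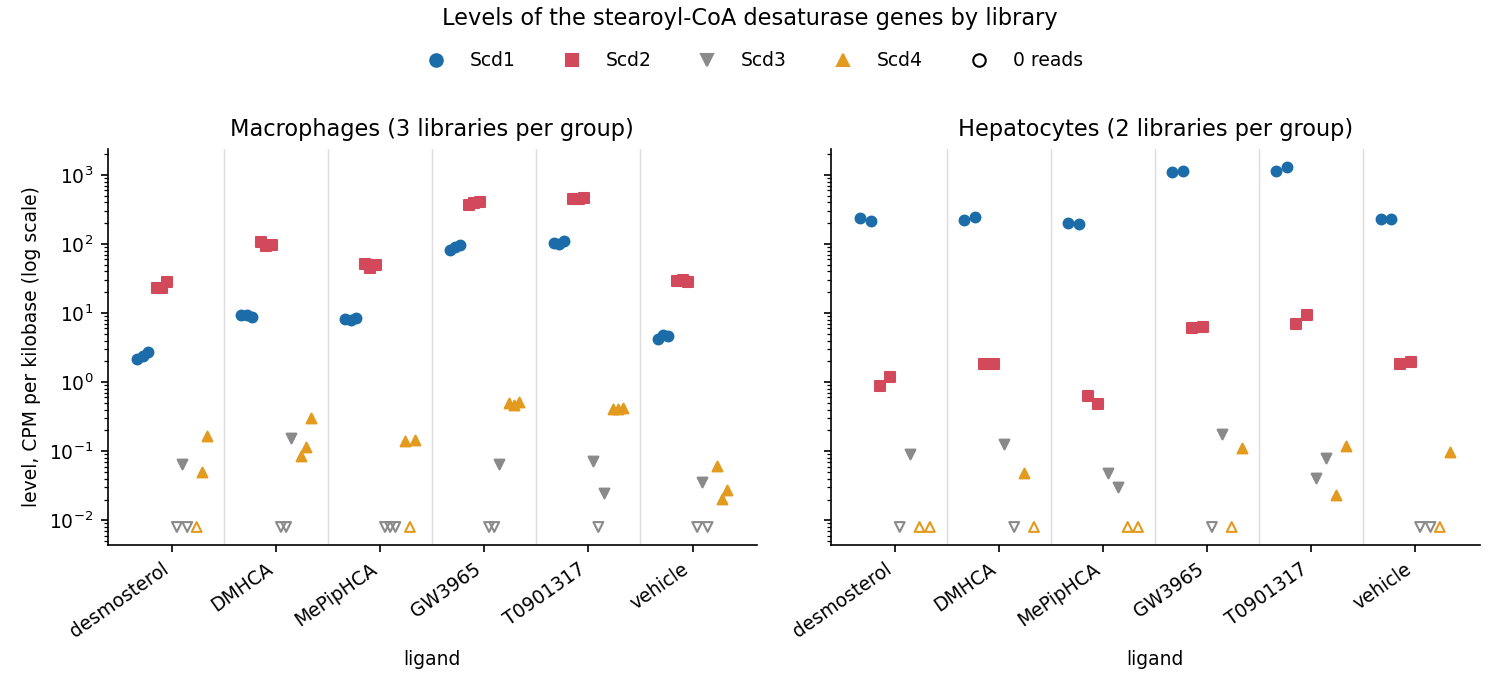
Level of each family member in every library, in CPM per kilobase of counted transcript on a log axis, for macrophages (left, 3 libraries per group) and hepatocytes (right, 2 per group). Filled symbols are single libraries and open symbols at the bottom are libraries with 0 reads; Scd2 lies above Scd1 in every macrophage library and far below it in every hepatocyte library, and Scd3 and Scd4 stay under 1 throughout.

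In macrophages Scd1 was lower with desmosterol and higher with each of the other 4 ligands than with vehicle. With desmosterol the 3 libraries held 10.4, 11.6 and 13.3 CPM of Scd1. With DMHCA they held 44.8, 44.7 and 42.6 CPM, and with MePipHCA 38.98, 38.4 and 41.2 CPM. With GW3965 they held 397, 437 and 465 CPM, and with T0901317 they held 499, 484 and 541 CPM. The vehicle libraries held 20.2, 23.5 and 22.6 CPM. All desmosterol libraries lay below, and all libraries of the other ligands above, all vehicle libraries.

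Against vehicle, Scd1 in macrophages fell by 0.92 ± 0.098 on the log2 scale (SE) with desmosterol, a 1.89-fold decrease (adjusted p = 2.0e-09). It rose 1.97-fold with DMHCA (log2 fold change 0.98 ± 0.088, adjusted p = 1.3e-11) and 1.79-fold with MePipHCA (0.84 ± 0.091, adjusted p = 4.9e-10). The rise was 19.5-fold with GW3965 (4.29 ± 0.072, adjusted p = 3.5e-37) and 22.9-fold with T0901317 (4.52 ± 0.072, adjusted p = 5.2e-38). Among all 11544 genes tested, Scd1 ranked 1 by log2 fold change with T0901317 and 3 with GW3965. The shares of all tested genes called against vehicle in macrophages were 9.5% with desmosterol, 11.7% with DMHCA, 35.4% with MePipHCA, 13.2% with GW3965 and 12.8% with T0901317. The calls made with MePipHCA are read against a background of more than 1 gene in 3. Scd1 was the minor paralog in macrophages. Summed over libraries it held 746 reads with DMHCA and 863 with vehicle, against 9072 and 6167 of Scd2. Of the windows in Scd2, 2.68% at 50 bases and 5.86% at 25 bases were found in Scd1. The part of Scd2 reads counted as Scd1 in these Scd1 values was not tested.

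Scd2 moved in the same directions in macrophages, with other sizes. With desmosterol the libraries held 127, 124 and 152 CPM of Scd2, and with DMHCA 573, 508 and 531 CPM. With MePipHCA they held 275, 247 and 268 CPM. With GW3965 they held 1980, 2119 and 2209 CPM, and with T0901317 they held 2443, 2441 and 2528 CPM. The vehicle libraries held 159, 164 and 154 CPM. The desmosterol libraries all lay below the vehicle libraries, the nearest by a narrow margin, and the other ligands' libraries all lay above them.

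Scd2 fell by 0.24 ± 0.061 on the log2 scale with desmosterol (1.18-fold, edgeR adjusted p = 0.0055). Without the first desmosterol library the fall was 0.20 with an edgeR adjusted p of 0.0501, so the call was narrowly lost. Over the 6 fits that each left out 1 library the log2 fold change ran from -0.34 to -0.19, and 1 lost the call. Scd2 rose 3.38-fold with DMHCA (1.76 ± 0.060, adjusted p = 1.8e-25) and 1.66-fold with MePipHCA (0.73 ± 0.061, adjusted p = 4.6e-13). It rose 13.2-fold with GW3965 (3.73 ± 0.062, adjusted p = 3.5e-37) and 15.5-fold with T0901317 (3.96 ± 0.063, adjusted p = 5.2e-38). Its rank by log2 fold change among all genes was 7 with GW3965, 6 with T0901317 and 23 with DMHCA. Summing the reads of all 4 members, which no exchange of reads between them can change, gave log2 fold changes of -0.31 with desmosterol, 1.68 with DMHCA, 0.75 with MePipHCA, 3.81 with GW3965 and 4.04 with T0901317.

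In hepatocytes Scd1 was higher with the 2 synthetic agonists that are not sterols and did not pass the threshold with any of the 3 sterol ligands. With desmosterol the libraries held 1138 and 1053 CPM of Scd1, with DMHCA 1071 and 1180 CPM, and with MePipHCA 971 and 944 CPM. With GW3965 they held 5385 and 5486 CPM, and with T0901317 they held 5480 and 6348 CPM. The vehicle libraries held 1112 and 1093 CPM. The desmosterol and DMHCA libraries lay on both sides of the vehicle libraries, the MePipHCA libraries lay below them, and the GW3965 and T0901317 libraries lay far above.

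The log2 fold change of Scd1 in hepatocytes was 2.30 ± 0.077 with GW3965, a 4.93-fold rise (edgeR adjusted p = 1.2e-18), and 2.42 ± 0.078 with T0901317, a 5.36-fold rise (adjusted p = 3.2e-19). With desmosterol it was -0.01, with a 95% interval from -0.16 to 0.14 (adjusted p = 0.99). With DMHCA it was 0.03, with an interval from -0.12 to 0.18 (adjusted p = 1.0). With MePipHCA it was -0.20, with an interval from -0.35 to -0.05 and an adjusted p of 0.20. The intervals for the 3 sterol ligands did not go beyond 0.18, a 1.13-fold rise. Of all 13176 genes tested in hepatocytes, 0.364% were called with desmosterol, 2.17% with MePipHCA, 0.478% with GW3965 and 0.941% with T0901317. These shares moved by more than 1.5 times when single libraries were left out. With DMHCA edgeR and DESeq2 each called 0 genes, and 615 genes had an unadjusted p under 0.05 in edgeR.

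Scd2 in hepatocytes was a minor transcript that moved in both directions. With desmosterol the libraries held 53 and 102 reads of Scd2, or 4.78 and 6.37 CPM. With DMHCA they held 138 and 151 reads, or 10.1 and 9.92 CPM, and with MePipHCA 42 and 49 reads, or 3.47 and 2.60 CPM. With GW3965 they held 470 and 606 reads, or 32.8 and 34.3 CPM, and with T0901317 they held 538 and 552 reads, or 37.8 and 50.4 CPM. The vehicle libraries held 128 and 70 reads, or 9.95 and 10.6 CPM. On the CPM scale the DMHCA libraries lay around the lower vehicle library, those of desmosterol and MePipHCA below both vehicle libraries, and those of GW3965 and T0901317 above both.

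Scd2 in hepatocytes rose 3.28-fold with GW3965 (1.71 ± 0.20, edgeR adjusted p = 4.6e-06) and 4.30-fold with T0901317 (2.10 ± 0.20, adjusted p = 8.0e-08). It fell by 1.78 ± 0.24 on the log2 scale with MePipHCA, a 3.43-fold decrease (adjusted p = 2.4e-05). With desmosterol the log2 fold change was -0.86 ± 0.22, with an interval from -1.32 to -0.40 and an adjusted p of 0.10. With DMHCA it was -0.03, with an interval from -0.47 to 0.40.

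These hepatocyte values of Scd2 have 2 limits. Scd2 reads were 0.275% to 0.968% of the Scd1 reads of the same library. This lay below the share of Scd1 windows also found in Scd2, which was 3.03% at 50 bases, 1.66% at 75 and 1.01% at 100. Of the windows of 100 bases in Scd2, 0.896% were found in Scd1, a share of Scd2 that is not comparable with this percentage of Scd1 reads. Reads of the abundant Scd1 that were counted as Scd2 therefore cannot be told apart from Scd2 itself, and the percentage was not the same in all groups. Macrophage markers were also present. Of the 7 tested in hepatocytes, 1 was called with GW3965, Clec4f, with a log2 fold change of 2.81 (edgeR adjusted p = 0.0013), and none with the other 4 ligands. Of all genes tested, 0.478% were called with GW3965 and at most 2.17% with any other ligand. At such shares a count of 0 of 7 says nothing particular about these markers. The median log2 fold change of the 7 was 0.055 with GW3965 and -0.23 with T0901317. Csf1r stood at 6.28 to 8.30 CPM with GW3965 and 1.19 to 3.23 CPM with T0901317, against 2.27 to 2.96 CPM with vehicle. Clec4f stood at 3.43 to 4.12 CPM with desmosterol, 1.60 to 2.43 CPM with DMHCA, 2.97 to 3.80 CPM with MePipHCA, 7.75 to 13.3 CPM with GW3965 and 3.29 to 6.25 CPM with T0901317, against 0.605 to 2.10 CPM with vehicle. It lay above the vehicle libraries with every ligand except DMHCA. Adgre1 and Lyz2 were not above vehicle with GW3965. Adgre1 stood at 1.92 to 2.51 CPM with GW3965, against 2.12 to 2.96 CPM with vehicle, and Lyz2 at 5.43 to 6.28 CPM with GW3965, against 3.78 to 16.3 CPM with vehicle. The summed level of the 8 macrophage markers in the table was 370 to 415 CPM with GW3965 and 373 to 431 CPM with T0901317, against 339 to 367 CPM with vehicle. The part of such cells in the Scd2 result was not tested. Here as in every result from bulk RNA, fewer or more cells of a type and less or more RNA per cell cannot be told apart.

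**Figure D2:**
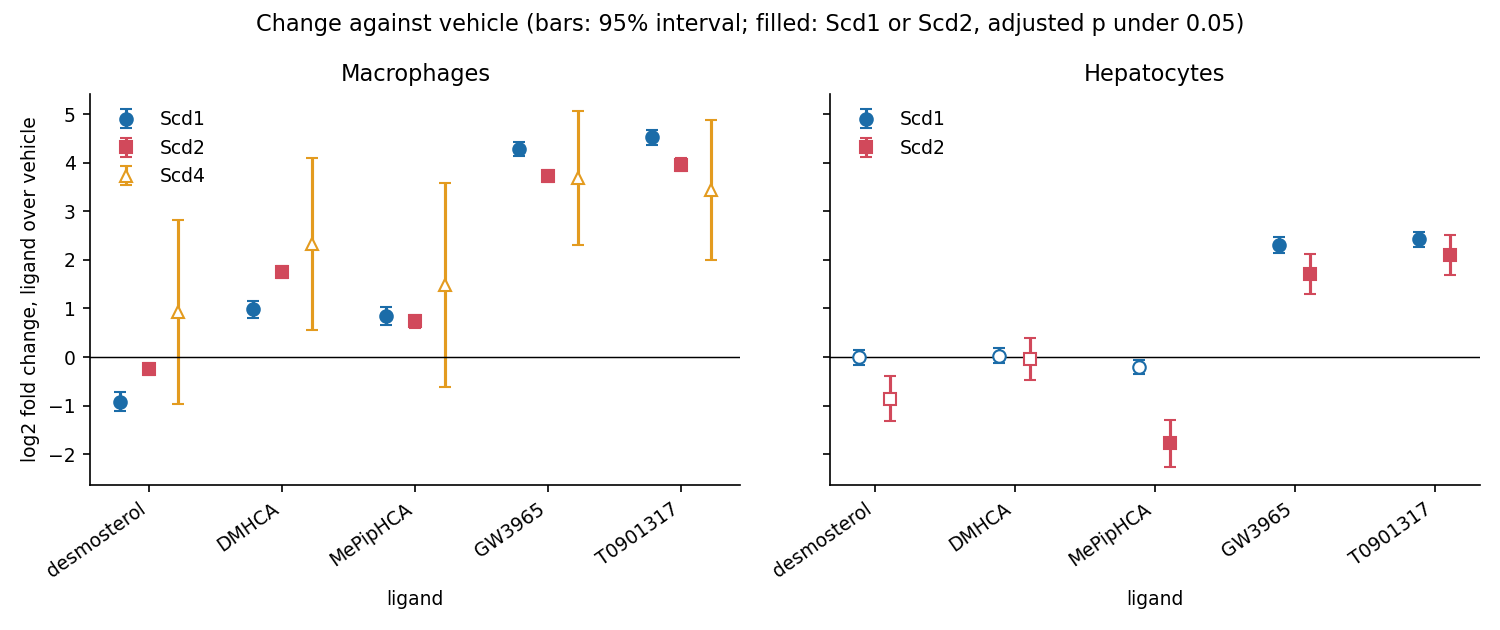
Log2 fold change of each tested member against vehicle for the 5 ligands (bars, 95% interval from the edgeR fit; filled symbols, Scd1 or Scd2 at adjusted p under 0.05; Scd4 is drawn open throughout because it is given with no test). In macrophages Scd1 reaches 4.52 and Scd2 3.96 with T0901317, while in hepatocytes they reach 2.42 and 2.10 and Scd2 falls by 1.78 with MePipHCA.

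The response to each ligand was compared between the cell types in a joint fit of all 30 libraries, as the macrophage log2 fold change minus the hepatocyte one. For Scd1 this difference was -0.91 ± 0.13 with desmosterol (adjusted p = 5.5e-06), 0.94 ± 0.12 with DMHCA (adjusted p = 5.3e-07), 1.06 ± 0.12 with MePipHCA (adjusted p = 1.5e-08), 1.96 ± 0.11 with GW3965 (adjusted p = 2.3e-17) and 2.10 ± 0.11 with T0901317 (adjusted p = 2.1e-18). Scd1 thus passed with all 5 ligands. For Scd2 the difference was 1.77 ± 0.19 with DMHCA (adjusted p = 3.0e-09), 2.53 ± 0.22 with MePipHCA (adjusted p = 6.1e-12), 1.98 ± 0.17 with GW3965 (adjusted p = 2.4e-11) and 1.87 ± 0.17 with T0901317 (adjusted p = 1.3e-10). With desmosterol it was 0.60 ± 0.20 and did not pass (adjusted p = 0.13). Of all 13700 genes in the joint fit, 2.53% passed with desmosterol, 2.75% with DMHCA, 9.66% with MePipHCA, 3.11% with GW3965 and 3.64% with T0901317. Scd1 started 36.7-fold higher in vehicle hepatocytes, so the ligand levels of hepatocytes stayed above those of macrophages. With T0901317 Scd1 averaged 508 CPM in macrophages and 5914 CPM in hepatocytes, each scaled within its cell type.

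The 4 ligands given at 1 uM were compared with each other in 6 pairs per cell type. Adjusted p-values are given over all genes and, where the calls differ, also over the 6 pairs. DMHCA and MePipHCA are both amides of a hydroxycholenic acid and differ in the amine, which is dimethyl in DMHCA and methylpiperidinyl in MePipHCA. Scd2 fell 2.03-fold with MePipHCA relative to DMHCA in macrophages (-1.02 ± 0.061, edgeR adjusted p = 4.5e-17) and 3.35-fold in hepatocytes (-1.74 ± 0.23, adjusted p = 1.6e-05). For Scd1 in macrophages the difference was -0.14, with an interval from -0.33 to 0.04, and did not pass (adjusted p = 0.29 over genes and 0.13 over the pairs). For Scd1 in hepatocytes it was -0.23, with an interval from -0.38 to -0.08, which passed over the 6 pairs (adjusted p = 0.0046) and not over all genes (adjusted p = 0.081). In this pair 22.9% of the tested genes were called in macrophages and 3.3% in hepatocytes.

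GW3965 and T0901317, which have unlike structures, gave close values. In macrophages the difference of GW3965 from T0901317 was -0.23 for Scd1, with an interval from -0.35 to -0.11, and -0.23 for Scd2, with an interval from -0.34 to -0.12. Both passed over the 6 pairs (edgeR adjusted p = 3.1e-04 and 1.3e-04) and neither over all genes (0.30 and 0.23). In hepatocytes the difference was -0.12 for Scd1, with an interval from -0.27 to 0.03 (adjusted p = 0.97 over genes and 0.11 over the pairs). For Scd2 in hepatocytes it was -0.39, with an interval from -0.76 to -0.02 (0.97 over genes and 0.038 over the pairs). In this pair 0.0173% of the tested genes, 2 genes, were called in macrophages. In hepatocytes edgeR and DESeq2 each called 0 genes, and 667 had an unadjusted p under 0.05 in edgeR.

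Each sterol amide was far below each of the other agonists for both genes and in both cell types. With DMHCA relative to T0901317, Scd1 was 11.6-fold lower and Scd2 4.61-fold lower in macrophages, and 5.26-fold and 4.40-fold lower in hepatocytes. With MePipHCA relative to T0901317, Scd1 was 12.8-fold lower and Scd2 9.36-fold lower in macrophages, and 6.18-fold and 14.7-fold lower in hepatocytes. Relative to GW3965, Scd1 and Scd2 were 9.89-fold and 3.92-fold lower with DMHCA and 10.9-fold and 7.97-fold lower with MePipHCA in macrophages. In hepatocytes these values were 4.83-fold and 3.36-fold lower with DMHCA and 5.68-fold and 11.2-fold lower with MePipHCA. All 16 of these differences passed over all genes, with edgeR adjusted p-values of at most 1.6e-06. The shares of tested genes called in macrophages were 5.12% for DMHCA and 25.9% for MePipHCA against T0901317, and 3.39% and 25.7% against GW3965. In hepatocytes they were 0.987% and 6.05% against T0901317, and 0.615% and 4.62% against GW3965. Desmosterol was given at 10 uM and was not tested against the other ligands.

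The ratio of Scd2 to Scd1 within a library does not depend on its depth or scaling. It does depend on how reads that match both genes were counted, which is not given in the sources used here. Per kilobase, Scd2 exceeded Scd1 in macrophages 10.1 ± 0.637-fold with desmosterol, 10.8 ± 0.665-fold with DMHCA, 5.92 ± 0.309-fold with MePipHCA, 4.31 ± 0.108-fold with GW3965, 4.32 ± 0.166-fold with T0901317 and 6.40 ± 0.505-fold with vehicle (SD, n = 3 each). The vehicle libraries stood at 6.97, 6.20 and 6.02. The desmosterol and DMHCA libraries all lay above that range, the GW3965 and T0901317 libraries all below it, and those of MePipHCA overlapped it. In log2 units the ratio differed from vehicle by 0.66 with desmosterol, 0.76 with DMHCA, -0.11 with MePipHCA, -0.56 with GW3965 and -0.56 with T0901317. A two-sided exact permutation test of 3 against 3 libraries cannot give a p below 0.1. It gave 0.1 for 4 of the ligands (adjusted p = 0.25 over the 10 ligand comparisons of both cell types) and 0.3 for MePipHCA.

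In hepatocytes Scd2 per kilobase was 0.454% ± 0.116 of Scd1 with desmosterol, 0.790% ± 0.0621 with DMHCA, 0.281% ± 0.0520 with MePipHCA, 0.547% ± 0.0102 with GW3965, 0.658% ± 0.0652 with T0901317 and 0.827% ± 0.0458 with vehicle (SD, n = 2 each). The vehicle libraries stood at 0.794% and 0.859%. All ligand libraries lay below that range except the first DMHCA library, at 0.834%. The log2 differences from vehicle were -0.88 with desmosterol, -0.07 with DMHCA, -1.56 with MePipHCA, -0.60 with GW3965 and -0.34 with T0901317. With 2 against 2 libraries the exact permutation test cannot give a p below 0.333, which it gave for each ligand except DMHCA (0.667). With desmosterol the ratio was above vehicle in all macrophage libraries and below it in all hepatocyte libraries, a contrast for which no test was made.

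**Figure D3:**
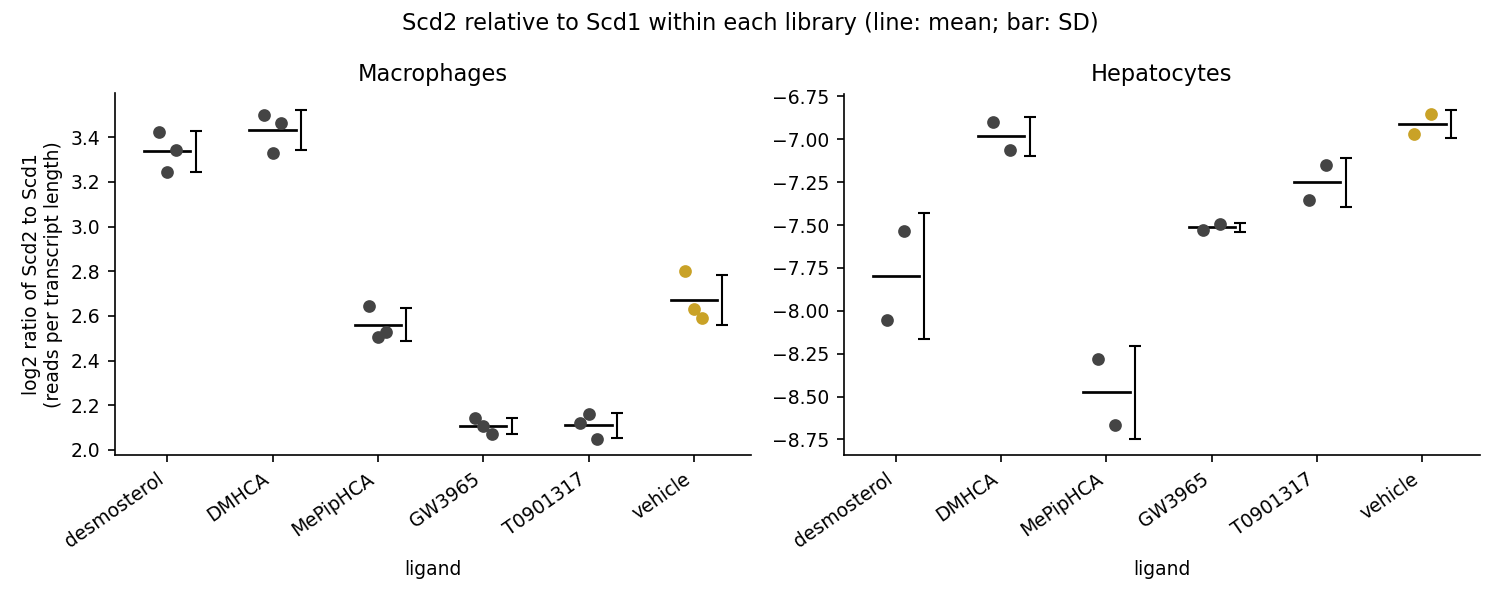
Ratio of Scd2 to Scd1 per kilobase of transcript in each library, on a log2 axis, for macrophages and hepatocytes; points are libraries, horizontal lines group means and vertical bars the SD. In macrophages the mean ratio is 10.1 with desmosterol and 10.8 with DMHCA, above the vehicle mean of 6.40, and 4.31 and 4.32 with GW3965 and T0901317, below it.

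Scd4 was detected at trace level. In macrophages its 18 libraries held 82 reads in all, with at most 15 in 1 library. The desmosterol libraries held 0, 2 and 5 reads, the DMHCA libraries 1, 2 and 7, and the MePipHCA libraries 2, 0 and 3. They held 7, 10 and 14 reads with GW3965 and 5, 5 and 15 with T0901317, against 2, 1 and 1 with vehicle. In CPM, Scd4 averaged 1.51 ± 0.0587 with GW3965 and 1.27 ± 0.0336 with T0901317, against 0.110 ± 0.0651 with vehicle (SD, n = 3 each). The GW3965 and T0901317 libraries all lay above those of vehicle and of the other ligands.

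The fitted log2 fold change of Scd4 was 3.68 ± 0.68 with GW3965, with an interval from 2.31 to 5.06, and 3.44 ± 0.71 with T0901317, with an interval from 1.99 to 4.88. It was 2.32 with DMHCA, 1.48 with MePipHCA and 0.92 with desmosterol. These are descriptions with no test, because Scd4 entered the fit only through the GW3965 libraries in which it was high, and they depend on 4 vehicle reads. Scd4 reads were 0.0714% of Scd2 reads with GW3965 (exact Clopper-Pearson 95% interval 0.0485% to 0.101%) and 0.0513% with T0901317 (0.0332% to 0.0758%), against 0.0649% with vehicle (0.0177% to 0.166%). These intervals overlap and cover counting error only. A rise of Scd4 and Scd2 reads that were counted as Scd4 cannot be told apart here.

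In hepatocytes Scd4 held 15 reads in 5 of 12 libraries, with at most 6 in 1 library, and was not tested there. Both libraries with desmosterol and both with MePipHCA held 0 Scd4 reads. A count of 0 allows up to 3 reads, which is 0.159 to 0.270 CPM in those 4 libraries. Between the vehicle groups the joint fit gave Scd4 a log2 difference of 0.35, macrophages minus hepatocytes, with an interval from -2.65 to 3.34.

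Scd3 was not detectable above the floor in most libraries. It held 13 reads in 6 of 18 macrophage libraries, with at most 4 in 1 library, and 31 reads in 7 of 12 hepatocyte libraries. Among hepatocytes the second GW3965 library held 11 reads (0.623 CPM) while the first held 0. Both vehicle hepatocyte libraries held 0 reads. No fold change was computed for Scd3.

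The genes around the cluster were read beside it. Of 11 other genes within 200 kb, 7 were tested in macrophages and 8 in hepatocytes. In hepatocytes none of the 8 was called with any ligand by edgeR, against backgrounds of 0.478% of genes with GW3965 and 0.941% with T0901317, at which a count of 0 of 8 says nothing particular about the neighbours. In macrophages Mir5114 was called with DMHCA, MePipHCA, GW3965 and T0901317, with log2 fold changes of 2.35, 1.31, 3.78 and 4.34. All 61 annotated bases of Mir5114, chr19:44303171-44303231, lie inside exon 6 of Scd2, so reads of Scd2 and of Mir5114 cannot be told apart. The other 6 neighbours tested in macrophages were not called with desmosterol, DMHCA, GW3965 or T0901317, against backgrounds of 9.5% to 13.2% of genes. With MePipHCA, 3 of them were called, namely Erlin1 (0.33), Hif1an (0.31) and Chuk (0.26), against a background of 35.4% of genes.

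**Figure D4:**
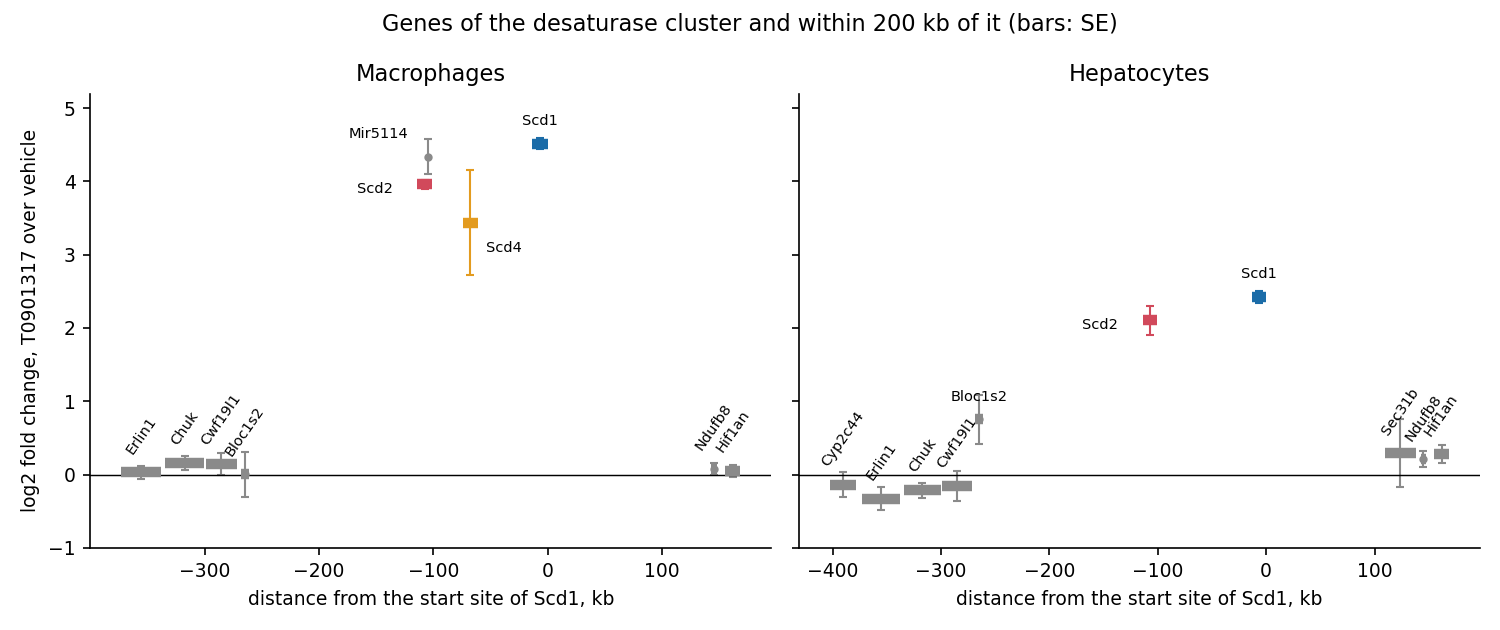
Log2 fold change with T0901317 over vehicle (bars, SE) for the tested genes of the Scd cluster and within 200 kb of it, plotted at their distance from the start site of Scd1 in kb. Scd1, Scd2 and Mir5114, which lies inside Scd2, stand between 3.96 and 4.52 in macrophages. Scd4 stands at 3.44 there and is given with no test. Scd1 and Scd2 stand at 2.42 and 2.10 in hepatocytes. The other neighbours lie near 0 in macrophages and between -0.33 and 0.75 in hepatocytes, none of them called.

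The genes with the most similar response were found by the root mean square of the difference in log2 fold change over the 5 ligands, a description that carries no test since all 5 share the vehicle libraries. In macrophages Scd2 was the nearest of 11543 genes to Scd1, at a distance of 0.58. Outside the cluster the nearest to Scd1 were Srebf1 (1.33) and Fasn (1.36). Mir5114 (0.87) lies inside Scd2 and cannot be told apart from it. Scd4 is left out here, because it entered the fit only through the GW3965 libraries in which it was high. The nearest to Scd2 outside the cluster were Srebf1 (0.86) and Pltp (1.12), which encodes a phospholipid transfer protein of plasma lipoproteins. In hepatocytes the nearest genes to Scd1 were Abca1 (0.28), the cholesterol efflux transporter, and Lpl (0.34), which encodes lipoprotein lipase. They were followed by Paqr8 (0.42), Cd59b (0.55) and Mylip (0.55), which encodes a ubiquitin ligase for the LDL receptor. Scd2 ranked only 27 for Scd1 in hepatocytes, at 0.85. The nearest genes to Scd2 there were Rnf186 (0.65), Ccdc65 (0.69), Abca1 (0.71), Fam50b (0.74) and Gp5 (0.79).

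Among 10 regulators of the family, 9 were tested in macrophages and 10 in hepatocytes. Srebf1 rose with all 5 ligands in macrophages, with log2 fold changes of 0.47 with desmosterol, 1.53 with DMHCA, 0.89 with MePipHCA, 2.59 with GW3965 and 2.60 with T0901317. In hepatocytes it rose with GW3965 (1.22) and T0901317 (1.27), and its values with desmosterol, DMHCA and MePipHCA were 0.05, 0.14 and -0.21 and did not pass. Insig1, a retention factor for SREBP and itself an SREBP target, fell with the 3 sterol ligands in macrophages, by 1.91 with desmosterol, 1.53 with DMHCA and 2.28 with MePipHCA. Srebf2, which encodes the SREBP of cholesterol synthesis, fell in the same groups by 1.08, 0.87 and 2.00. In hepatocytes Insig1 fell with desmosterol (-0.48) and MePipHCA (-1.04) and rose with GW3965 (0.67) and T0901317 (0.57). Over the list in macrophages, desmosterol called 2 of the 9 higher and 4 lower, DMHCA 2 higher and 2 lower, and MePipHCA 1 higher and 2 lower, while 2 rose with GW3965 and 1 rose with T0901317. Of all genes tested, 4.93% were called higher and 4.57% lower with desmosterol, 5.8% and 5.9% with DMHCA, 17.2% and 18.3% with MePipHCA, 6.54% and 6.69% with GW3965 and 6.29% and 6.55% with T0901317. The 3 of 9 called with MePipHCA are no more than the 35.4% of all genes called there.

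Of 8 genes that make the saturated substrate, 7 were tested in macrophages. The desmosterol comparison called 0 higher and 5 lower, against 4.57% of all genes lower, and each sterol amide 1 higher and 4 lower, against 5.9% lower with DMHCA and 18.3% lower with MePipHCA. With GW3965 3 rose and 0 fell, and with T0901317 2 rose and 0 fell, against 6.54% and 6.29% of all genes higher. The median log2 fold change of the 7 was -0.64 with desmosterol, -0.47 with DMHCA, -0.79 with MePipHCA, 0.23 with GW3965 and 0.34 with T0901317, while that of all genes lay within 0.01 of 0 in each. Elovl6, the elongase that makes stearoyl-CoA, fell by 1.40 with desmosterol, 1.60 with DMHCA and 2.60 with MePipHCA, and its values with GW3965 and T0901317 were -0.07 and -0.17 and did not pass. Fasn, the fatty acid synthase, fell by 1.23 with desmosterol, was at -0.17 with DMHCA and -0.01 with MePipHCA without passing, and rose with GW3965 (2.61) and T0901317 (2.45). Acaca, which encodes acetyl-CoA carboxylase, rose with DMHCA (0.40), MePipHCA (0.64), GW3965 (1.27) and T0901317 (1.17). With the 2 sterol amides, Scd1 and Scd2 thus rose in macrophages beside falls of Elovl6 and, among the others, of Acss2 (-0.96 with DMHCA and -1.18 with MePipHCA). In hepatocytes 0 of the 8 were called with desmosterol or DMHCA, 2 fell with MePipHCA, 2 rose with GW3965 and 3 rose with T0901317, Fasn among them (1.11 and 1.08). Of all genes in hepatocytes 1.38% were called lower with MePipHCA, and 0.364% and 0.486% were called higher with GW3965 and T0901317.

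Of the other fatty acid and sphingolipid desaturases, 5 were tested in macrophages. Of these 3 fell with DMHCA and 4 with MePipHCA, against 5.9% and 18.3% of all genes called lower, and 0 rose with either, against 5.8% and 17.2% called higher. With desmosterol 2 fell and 1 rose, against 4.57% and 4.93% of all genes. With GW3965 2 rose and 1 fell, against 6.54% and 6.69%. The counts with T0901317 were also 2 and 1, against 6.29% and 6.55%. Fads2, which desaturates essential fatty acids, fell by 1.33 with desmosterol, 1.78 with DMHCA and 3.13 with MePipHCA and rose by 1.19 with GW3965 and 0.95 with T0901317. In hepatocytes 2 of the 5 tested fell with MePipHCA, Fads2 (-0.62) and Fads1 (-0.42), against 1.38% of all genes called lower. Fads2 alone rose there with GW3965 (0.66) and T0901317 (0.65), against 0.364% and 0.486% of all genes called higher. Of the 4 cytochrome b5 and reductase genes that supply the electrons, none rose with GW3965 or T0901317 in either cell type at adjusted p under 0.05, a count that the background of at most 6.54% of genes called higher also gives. Cyb5a fell in macrophages by 0.23 with T0901317 (edgeR adjusted p = 0.011) and by 0.27 with MePipHCA (adjusted p = 9.3e-04). Cyb5b fell by 0.43, 0.40 and 0.69 in macrophages with desmosterol, DMHCA and MePipHCA, and Cyb5r1 rose with MePipHCA in macrophages (0.61) and hepatocytes (0.64).

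Among 8 genes of the pathways that build oleoyl-CoA into phospholipids, triglycerides or cholesteryl esters, 7 were tested in macrophages and 8 in hepatocytes. Lpcat3, an acyltransferase that puts unsaturated fatty acids into phospholipids, rose with all 5 ligands in macrophages (0.41 with desmosterol, 0.89 with DMHCA, 0.66 with MePipHCA, 1.84 with GW3965 and 1.81 with T0901317). In hepatocytes it rose with GW3965 (0.84) and T0901317 (0.81). Soat2, which esterifies cholesterol, averaged 6.81 ± 0.656 CPM with MePipHCA in macrophages, against 0.402 ± 0.0860 CPM with vehicle (SD, n = 3 each), and 0.644 to 0.954 CPM with the other ligands. It passed the filter on low counts only through the MePipHCA libraries, so this difference is given with no test. Lpin1, a phosphatidate phosphatase, rose in both cell types with GW3965 (0.45 in macrophages and 0.56 in hepatocytes) and T0901317 (0.44 and 0.54), and fell by 1.08 with MePipHCA in hepatocytes.

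Markers of other cells were read beside these results. In macrophage libraries the summed level of 6 stromal markers was 79.9 to 96.9 CPM with MePipHCA, 144 to 205 CPM with DMHCA and 230 to 292 CPM with desmosterol, against 243 to 309 CPM with vehicle. With GW3965 it was 216 to 222 CPM and with T0901317 258 to 337 CPM. All 6 of them were called lower with MePipHCA and with DMHCA, against 18.3% and 5.9% of all genes tested. With GW3965 1 was called lower, against 6.69% of all genes, and 0 with desmosterol or T0901317. The summed level of the macrophage markers was 12625 to 12843 CPM with MePipHCA, 14936 to 15903 CPM with GW3965 and 14394 to 15094 CPM with T0901317, against 16182 to 16261 CPM with vehicle. It was 15261 to 18001 CPM with desmosterol and 15997 to 17095 CPM with DMHCA. Of 7 tested, 5 were called lower with MePipHCA, 4 with each of GW3965 and T0901317, 3 with DMHCA and 2 with desmosterol. Of all genes, 18.3%, 6.69%, 6.55%, 5.9% and 4.57% were called lower with these ligands, in the same order. With each ligand except MePipHCA, 1 marker was called higher, against 4.93% to 6.54% of all genes. Csf1r, the receptor for the macrophage growth factor, fell by 0.88 with MePipHCA, 0.43 with GW3965 and 0.51 with T0901317. The 4 mesothelial markers summed to 5.41 to 7.04 CPM with MePipHCA, against 17.5 to 24.8 CPM with vehicle. All 4 were called lower with MePipHCA, against 18.3% of all genes. With each of desmosterol and DMHCA 1 was called lower, against 4.57% and 5.9% of all genes. Of 3 cholangiocyte markers tested, Sox9 and Krt7 were called lower with MePipHCA (-2.86 and -2.44), against 18.3% of all genes. Stab2, from the endothelial list, was called higher with all 5 ligands, by 1.39 with desmosterol, 2.22 with DMHCA, 1.56 with MePipHCA, 2.68 with GW3965 and 2.56 with T0901317. It stood at 1.35 to 13.8 CPM in macrophage libraries. The rest of its list did not follow it. Kdr, the other of 2 tested, was not called with any ligand, and Pecam1 and Cdh5 did not exceed 0.65 and 0.77 CPM. The adipocyte markers Plin1 and Cfd were at 0 in all macrophage libraries, and the 5 adipocyte markers summed to at most 0.524 CPM there. The part of these cells in the Scd values was not tested.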

How the data were processed

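Polyadenylated RNA of 30 libraries (18 macrophage, 12 hepatocyte) was analysed. STAR, HOMER and the build mm10 are named, without versions, in the submitters' processing notes. The deposited count tables hold raw read counts over the exons of 1 transcript per gene, with replicates apart, per the file headers. The deposited RPKM tables hold values that, per the file headers, were scaled for length and depth, and served only as a check of the ratio. Strand settings are not given in the sources used here.

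Counts were tested with edgeR 4.0.16 (R 4.3.3): filterByExpr, TMM factors, a quasi-likelihood fit with 1 mean per group over all 6 groups of a cell type (11544 genes in macrophages, 13176 in hepatocytes), and 1 joint fit of both cell types over 13700 genes, joined by symbol. P-values were adjusted by the Benjamini-Hochberg method over all genes of a comparison, with a threshold of 0.05. Levels are CPM on library sizes scaled by the TMM factors of each cell type's own fit. They are per kilobase of the counted transcript where genes are compared. SE is the log2 fold change divided by the square root of its F value, and intervals are 95%. The Scd2 to Scd1 ratio was tested by exact two-sided permutation. A count of 0 was given a floor of 3 reads. Intervals and floors cover counting error only.

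The fits were checked on simulated counts. Libraries with the same number in different groups did not deviate together: correlations ran from -0.046 to 0.14 in macrophages and from -0.017 to 0.046 in hepatocytes, so the numbers were not taken as pairs. No 2 libraries were duplicates. Alternatives were RLE size factors, no filter, DESeq2 1.42.0, thinning of all libraries to 1 depth, fits of 2 groups only, a replicate block, the members' reads summed, and leaving out each library. Windows of sequence come from GENCODE M21 on GRCm38, which is mm10. The family members, the lists of related genes and the markers were chosen with earlier results of these data known. From each list, up to 3 called genes with the largest change per comparison were named, and values of a gene so named are given for the other groups too.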

Additional observations from a re-analysis of the deposited data

Results flagged for a closer look

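The responses of Scd1 and Scd2 differed between the cell types for 9 of 10 gene and ligand combinations, in the joint edgeR test of the macrophage log2 fold change minus the hepatocyte one. Of all 13700 genes, 2.53% to 9.66% passed this test, depending on the ligand. For Scd1 the differences were -0.91 with desmosterol, 0.94 with DMHCA, 1.06 with MePipHCA, 1.96 with GW3965 and 2.10 with T0901317. For Scd2 they were 1.77 with DMHCA, 2.53 with MePipHCA, 1.98 with GW3965 and 1.87 with T0901317. In the macrophage part of each, all 3 ligand libraries lay on 1 side of the vehicle libraries. This does not bear on the hepatocyte part, and the share of all genes for which it holds was not computed. With desmosterol Scd1 had a log2 fold change of -0.92 in macrophages and of -0.01 in hepatocytes. With MePipHCA the calls of Scd2 had opposite signs, with a log2 fold change of 0.73 in macrophages and -1.78 in hepatocytes. In hepatocytes Scd2 reads were 0.275% to 0.968% of the Scd1 reads of the same library. Scd1 reads that were counted as Scd2 cannot be told apart from Scd2 there. Medium and title date differed between the cell types and cannot be told apart from the cell type.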

How the results depend on the processing

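All calls of Scd1 and Scd2 against vehicle kept their direction and their side of the threshold under RLE size factors, DESeq2, thinning, the replicate block, fits of 2 groups only and the summed reads. Without the filter on low counts, calls were gained for Scd2 with desmosterol in hepatocytes (-0.86, adjusted p = 0.039), its difference between cell types with desmosterol (0.60, 0.045), Scd1 with MePipHCA against DMHCA in hepatocytes (-0.23, 0.023) and Scd2 with GW3965 against T0901317 in macrophages (-0.23, 0.0059). Thinning gained that last call too (-0.25, 0.037) and put Scd1 with MePipHCA against DMHCA in macrophages at 0.0037 against -0.14 as reported, neither of which passed. The causes were not tested.

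Leaving out single libraries gave -0.34 to -0.19 for Scd2 with desmosterol in macrophages, where the call was lost without the first desmosterol library, and -0.30 to -0.17 for Scd1 with MePipHCA against DMHCA in hepatocytes, where a call was gained without the first DMHCA library (adjusted p = 0.033). Values near 0 in hepatocytes changed sign without passing: Scd1 with DMHCA (-0.036 to 0.098), Scd1 with desmosterol (-0.064 to 0.045), Scd2 with DMHCA (-0.079 to 0.0076) and the log2 ratio with DMHCA (-0.15 to 0.010). Scd4, which passed the filter only through the GW3965 libraries, is given with no test, and its ranges of 3.36 to 4.13 with GW3965 and 3.12 to 3.88 with T0901317 are no sign of stability. Its value with MePipHCA against T0901317 was -1.96 in the fit reported, -2.02 under DESeq2, -1.97 without the filter and -1.91 with the replicate block. When single libraries were left out it ran from -2.42 to -1.51. That against GW3965, the group through which Scd4 passed the filter, ran from -2.66 to -1.76. Sign changes of Scd4 were seen with desmosterol (-0.24 to 1.44) and with MePipHCA against DMHCA (-1.30 to 0.017). They were also seen for vehicle macrophages against hepatocytes (-1.02 to 3.50). Its differences between cell types changed sign with DMHCA (-0.30 to 5.45), GW3965 (-0.12 to 6.83) and T0901317 (-0.50 to 4.02).

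No library numbers paired the samples. With the number as a replicate block, DMHCA called 1 gene in hepatocytes against 0 as reported, and no call of Scd1 or Scd2 changed. Of the counts of genes called, 42 moved by more than 1.5 times when single libraries were left out and 16 under the other settings. In hepatocytes, leaving out single libraries gave 15 to 41 with desmosterol against 48 as reported, 0 to 27 with DMHCA against 0, 114 to 207 with MePipHCA against 286, 28 to 54 with GW3965 against 63 and 48 to 107 with T0901317 against 124. Between ligands there it gave 177 to 779 for MePipHCA against DMHCA (435 as reported, with the highest without the second DMHCA library), 59 to 168 for DMHCA against T0901317 (130), 35 to 179 for DMHCA against GW3965 (81), 298 to 482 for MePipHCA against T0901317 (797) and 242 to 357 for MePipHCA against GW3965 (609). Each hepatocyte library except the first desmosterol one moved at least 1 of these. In macrophages the second vehicle library moved the counts with desmosterol (665 against 1097) and DMHCA (898 against 1350), and the third DMHCA library that against T0901317 (336 against 591). For GW3965 against T0901317 in macrophages the counts were 0 to 2 against 2. For the differences between cell types they were 207 to 301 with desmosterol (346), 202 to 648 with DMHCA (377), 260 to 383 with GW3965 (426) and 331 to 483 with T0901317 (498). Without the filter hepatocytes gave 139 against 48 as reported with desmosterol, 22 against 0 with DMHCA, 163 against 63 with GW3965 and 256 against 124 with T0901317. DESeq2 gave 85 with desmosterol and 201 with T0901317. Fits of 2 groups gave 490 against 286 with MePipHCA and 107 against 63 with GW3965. Between ligands in hepatocytes, no filter gave 271 against 130 for DMHCA against T0901317, 181 against 81 for DMHCA against GW3965 and 9 against 0 for GW3965 against T0901317, and DESeq2 gave 200 and 126 for the first 2. In macrophages thinning gave 681 against 1097 with desmosterol, and no filter gave 15 against 2 for GW3965 against T0901317. Depth limits Scd3 and Scd4, whose libraries held at most 15 reads, and the hepatocyte Scd2 values of 42 to 606 reads.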
